A study of Mus musculus with 9 samples.

Results

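The 10 genes described here encode proteins of the piRNA pathway: Piwil1, Piwil2, Piwil4, Tdrd1, Tdrd5, Tdrd9, Mael, Mov10l1, Asz1 and Pld6. They were chosen by name out of 46078 gene identifiers in the count data, with no rule on measured values but with earlier results of these data known. All 10 were found under their symbols and all 10 had counts in each of the 9 libraries. Bulk mRNA sequencing was performed on EGFP-SSCs, a wild-type mouse line of spermatogonial stem cells that carries a green fluorescent protein, with 3 biological replicates at each of 3 times. At 0 h the cells were in normal culture on mitomycin C-treated mouse embryonic fibroblasts, in a medium with GDNF, FGF and EGF. At 24 h and 48 h they had been mixed 1:1 with somatic cells from the testes of busulfan-exposed mouse pups, in a medium with retinoic acid, BMP-4/7, activin A, testosterone and FSH, and the EGFP-positive cells had been sorted. All samples come from this 1 cell line, and co-culture and medium change together with time, so that their effects cannot be told apart. The labels mention sorting only for the 24 h and 48 h cells, and whether the 0 h cells were sorted, or how many feeder cells they held, is not clear from the sources used here. The labels do not say whether the replicates are separate cultures, so p-values here measure the spread between these samples.

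piRNAs are small RNAs of the germline that guide PIWI proteins to transcripts of transposons. Precursor transcripts are bound by the helicase Mov10l1, cut at the outer mitochondrial membrane by the nuclease Pld6, and loaded onto PIWI proteins, whose methylated arginines are bound by proteins with Tudor domains. In the mouse, loss of most of these genes leaves transposons active and arrests the male germ cells, and Piwil4 and Piwil2 are known from fetal prospermatogonia while Piwil1 is known from meiotic spermatocytes and round spermatids.

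The libraries held 16825251 to 22201892 counts. The 0 h replicates differed from each other more than the later ones did: chi-square per degree of freedom between pairs of libraries was 39.4 to 90.9 at 0 h and 7.78 to 28.7 at 24 h and 48 h, with the largest distance between 0 h replicates 1 and 3. The germ cell label was checked with Ddx4 and Dazl, which reached 357 ± 129 and 867 CPM at 0 h (mean, with SD for Ddx4, n = 3), where CPM is a gene's count scaled to a common library size after normalization. All 6 germ cell markers found in the count data were above 1 CPM in every library. Their summed level was 1464 to 2541 CPM at 0 h, 1656 to 1921 CPM at 24 h and 1668 to 1963 CPM at 48 h. Gcna, also listed as a marker, was not found, and Ddx4 is also among the other pathway genes described below. Markers of somatic cells moved with time. The 7 fibroblast markers summed to 310.2 to 396.7 CPM at 0 h, 2110 to 2440 CPM at 24 h and 2832 to 3123 CPM at 48 h. Col1a1, Col1a2 and Col3a1 made up most of the fibroblast sum. Their means were 157, 79.3 and 34.0 CPM at 0 h and 1111, 696 and 354 CPM at 24 h. Dcn and Pdgfra went from 18.7 and 27.3 CPM to 29.6 and 44.6 CPM, and Lum from 1.30 to 1.18 CPM. The 6 peritubular myoid markers summed to 13.7 to 15.6, 146 to 207 and 263 to 321 CPM. The 10 Sertoli markers summed to 24.6 to 26.0, 75.4 to 129 and 115 to 129.7 CPM, and the 6 Leydig markers to 4.48 to 6.79, 24.6 to 38.5 and 25.2 to 32.6 CPM. Of these Sertoli and Leydig genes, Fshr, Hsd3b1 and Insl3 had 0 counts in all 0 h libraries. In later libraries Fshr reached at most 2 counts and Insl3 at most 6, but Hsd3b1 reached 116. Inha and Cyp11a1 rose from means of 0.775 and 0.493 CPM at 0 h to 24.1 and 20.8 CPM at 24 h. Sox9 and Rhox5 went down instead, from 11.7 and 2.23 CPM to 6.63 and 0.368 CPM. The 5 endothelial markers summed to 70.1 to 77.1 CPM at 0 h, 28.3 to 36.1 CPM at 24 h and 20.9 to 24.0 CPM at 48 h. The 5 macrophage markers summed to 15.3 to 17.5, 6.20 to 10.05 and 6.33 to 9.16 CPM at these times. Most of this sum was Cd68, at means of 15.7 CPM at 0 h and 5.78 CPM at 24 h. Csf1r and Adgre1 went from 0.294 and 0.112 CPM to 1.08 and 0.390 CPM. Some single markers of other lists also ran against their sums between 0 h and 24 h. Thy1 of the fibroblast list went from 47.7 to 16.8 CPM, and Tek of the endothelial list from 1.42 to 3.49 CPM. The part of other cell types in the results below was not tested, and in these bulk samples fewer cells of a type and less RNA per cell cannot be told apart.

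**Figure D1:**
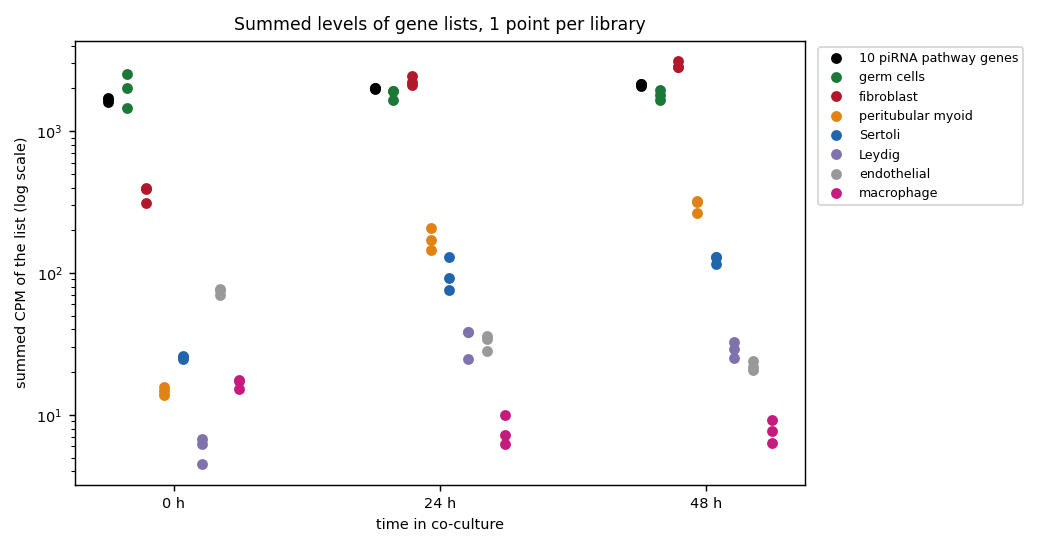
Summed level in CPM (vertical axis, log scale) of each list of marker genes at 0 h, 24 h and 48 h (horizontal axis), with 1 point per library. The germ cell points lie between 1464 and 2541 CPM at all times, while the fibroblast points move from under 400 CPM at 0 h to at least 2832 CPM at 48 h.

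The sequences before the transcription starts are shown first, and no link between them and the changes below was tested. A RefSeq table for GRCm38.p6 gave windows of 300 bases (250 before and 50 after each start) for 9 of the 10 genes, with 13 windows in all and none for Piwil2. The E-box CACGTG, a palindrome bound by basic helix-loop-helix factors, was present in 7 of these 13 windows (53.8%), belonging to 6 genes, against 2349 of 32851 windows of all genes (7.15%). The 7 windows include 2 overlapping windows of Tdrd1 that hold the same site. Of 22 other pathway genes, called companions here, 14 had windows, and the E-box was present in 7 of their 21 windows (33.3%). Among the 9764 windows of all genes with at least 18 CpG dinucleotides, the median of the 13 windows, it was present in 11.6%. Some of the 13 windows lie below this cutoff, such as that of Tdrd9 with 10. The shares of 53.8% and 11.6% are therefore not matched for CpG content. The occurrences are printed 5′ to 3′ on the strand of the gene with up to 10 bases on each side, and capitals mark the E-box.
Piwil1: aaccgccaccCACGTGgcagccaatc
Piwil1, second site: cagggcccagCACGTGtccacctcgc
Tdrd1: gggctgcgcgCACGTGggagtaaact
Tdrd9: tctccataaaCACGTGcctgtccagg
Tdrd9, second site: acgaggctccCACGTGcatgcagggc
Mael: ccaggcctacCACGTGacaatccccg
Mov10l1: ccttCACGTGctaaccgcca
Pld6: ggcgggctggCACGTGttgggcgcgc

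The Piwil1 stretches lie at chr5:128736057-128736082 and chr5:128736082-128736107, that of Tdrd1 at chr19:56826188-56826213, and those of Tdrd9 at chr12:111971384-111971409 and chr12:111971454-111971479, all on the plus strand. The Mael stretch is at chr1:166238952-166238977 on the minus strand, that of Mov10l1 at chr15:88982744-88982763 on the plus strand, where the window begins, and that of Pld6 at chr11:59787675-59787700 on the minus strand. The site nearest to a start is that of Tdrd1, from base 11 to base 6 before one of its starts and from base 77 to base 72 before another, followed by that of Pld6, from base 33 to base 28. The other sites begin 95 to 246 bases before the start. These distances are to RefSeq starts. The Piwil1 window lies inside that gene's span in the annotation used for gene positions below, so its sites are not upstream of that span. No CACGTG was present in the windows of Piwil4, Tdrd5 and Asz1. Of the genes with the E-box, Pld6 and Tdrd9 were called higher in the tests below, while Piwil1, Tdrd1, Mael and Mov10l1 were not called. Of those without it, Tdrd5 was called lower, and Piwil4 and Asz1 were not called. Piwil2, also called higher, had no window.

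Of the 4 genes whose levels changed in the tests below, 3 had a window. The 250 bases before their RefSeq starts are printed for comparison of the E-box sites and of base composition. Pld6 has 2 windows, of which the one with the E-box is printed, at chr11:59787658-59787907 on the minus strand. The printed bases of Tdrd9 hold 2 E-box sites and lie at chr12:111971309-111971558 on the plus strand. Those of Tdrd5 hold no E-box and lie at chr1:156303349-156303598 on the minus strand. The Tdrd5 window holds 48 CpG dinucleotides against 10 for Tdrd9 and 18 for the Pld6 window with the E-box. This Tdrd5 stretch lies inside the gene's span in the annotation used for gene positions below, so it is not upstream of that span. The other Pld6 window holds 25 CpG dinucleotides and no E-box.
Pld6: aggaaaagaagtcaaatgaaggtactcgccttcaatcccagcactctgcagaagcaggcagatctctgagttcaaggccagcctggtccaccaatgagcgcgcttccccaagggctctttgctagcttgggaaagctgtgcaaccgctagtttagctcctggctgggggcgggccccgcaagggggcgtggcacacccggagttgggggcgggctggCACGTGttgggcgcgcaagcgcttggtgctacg
Tdrd9: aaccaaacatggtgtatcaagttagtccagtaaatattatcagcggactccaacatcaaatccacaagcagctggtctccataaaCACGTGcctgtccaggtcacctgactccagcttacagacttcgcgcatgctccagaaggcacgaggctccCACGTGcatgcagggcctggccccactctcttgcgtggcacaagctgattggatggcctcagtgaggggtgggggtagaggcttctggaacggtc
Tdrd5: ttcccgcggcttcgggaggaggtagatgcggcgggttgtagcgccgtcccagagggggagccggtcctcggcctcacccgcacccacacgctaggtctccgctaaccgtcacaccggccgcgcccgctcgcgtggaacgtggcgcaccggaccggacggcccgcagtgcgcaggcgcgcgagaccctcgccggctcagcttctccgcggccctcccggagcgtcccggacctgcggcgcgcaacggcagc

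Other motifs were searched on both strands in the same windows. AACTG, the core bound by MYB factors, was present in 46.2% of the members' windows and 44.8% of all windows. CNCCTCAG, a core letter string of the STRA8 and MEIOSIN motif, was present in 15.4% (Asz1 and Mov10l1) against 7.94% of all windows and 28.6% of the companions' windows. The cAMP response element TGACGTCA (1.79% of all windows), the E2F string GGCGGGAA (2.19%) and the retinoic acid response element of direct repeats (0.00913%) were in 0 member windows. A match is a string of letters and was not tested for binding.

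Over both times against 0 h, the nuclease gene Pld6 and the PIWI gene Piwil2 rose, Tdrd9 rose, and Tdrd5 fell, while the other 6 genes did not pass the test. In edgeR's quasi-likelihood test at an adjusted p of 0.05, 3 members were higher and 1 lower at 24 h, when 25.5% of the 17592 genes tested were called, with 11.4% higher and 14.2% lower. The same 3 genes were higher and the same 1 lower at 48 h, where 31.6% of 17755 genes were called (13% higher, 18.5% lower). A called change of at least 2-fold was seen for 1 member, Pld6, at each time, against 13.2% of genes tested at 24 h and 16.7% at 48 h. Median log2 fold changes of the members were 0.11 at 24 h and 0.22 at 48 h, and those of all genes tested 0.0052 and 0.017. These medians of all genes became 0.12 and 0.13 when libraries were scaled by their totals alone. Both comparisons share the 0 h libraries, so the second is no independent repeat of the first.

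**Figure D2:**
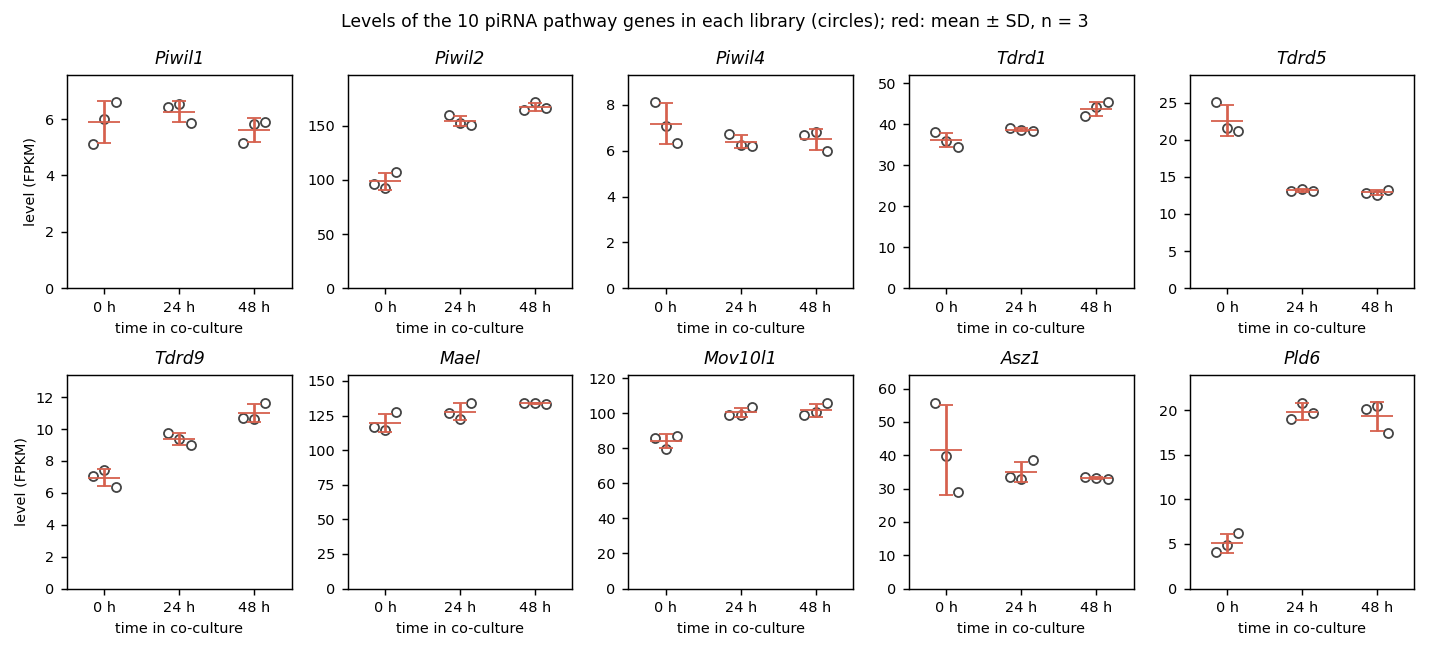
Level of each of the 10 genes in FPKM (vertical axis, its own scale in each panel, from 0) against time in co-culture (horizontal axis), with 1 circle per library and the mean ± SD of 3 libraries in red. The circles of Pld6 at 0 h, from 4.15 to 6.26 FPKM, lie below all later ones, those of Tdrd5 at 0 h lie above all later ones, and those of Asz1 are widest apart at 0 h.

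Among the PIWI proteins, which carry the piRNAs, Piwil2 (MILI, chr14:70372477-70429383, minus strand, GRCm38) was the most abundant. Its 0 h libraries held 508, 488 and 566 CPM, those of 24 h 845, 807 and 798 CPM, and those of 48 h 868, 906 and 880 CPM. Each library of 24 h and 48 h was above all 0 h libraries, and the log2 fold changes were 0.66 (SE 0.107, adjusted p = 0.00386, edgeR) at 24 h and 0.76 (SE 0.104, adjusted p = 0.00147) at 48 h, or 1.58-fold and 1.70-fold. Of all genes tested, 27.5% changed by more at 24 h, in either direction.

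Piwil4 (MIWI2, chr9:14696230-14740733, minus strand), the PIWI protein that directs DNA methylation of transposons in fetal germ cells, had 43.7, 38.1 and 34.0 CPM at 0 h, 36.2, 33.8 and 33.5 CPM at 24 h and 35.9, 36.8 and 32.2 CPM at 48 h. The groups overlapped, and neither time passed the test (log2 -0.15, 95% interval -0.46 to 0.16, at 24 h and -0.14, interval -0.46 to 0.17, at 48 h). Piwil1 (MIWI, chr5:128702524-128755474, plus strand) had 22.3, 26.1 and 28.7 CPM at 0 h, 28.0, 28.5 and 25.5 CPM at 24 h, and 22.4, 25.3 and 25.7 CPM at 48 h. Here, too, the groups overlapped, with log2 differences of 0.10 (interval -0.21 to 0.41) and -0.07 (interval -0.38 to 0.24). The last changed sign when libraries were scaled by their totals alone, to 0.04.

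Per length of gene, in FPKM (CPM per kilobase of exon), the 3 PIWI genes differed widely. Piwil2 stood at 98.5 ± 7.64 FPKM at 0 h, 154 ± 4.72 at 24 h and 167 ± 3.71 at 48 h (mean ± SD, n = 3), Piwil4 at 7.17 ± 0.897, 6.40 ± 0.274 and 6.49 ± 0.448, and Piwil1 at 5.90 ± 0.741, 6.27 ± 0.369 and 5.62 ± 0.414. Of the summed PIWI level, Piwil2 made up 88.2% ± 0.872 at 0 h, 92.4% ± 0.168 at 24 h and 93.2% ± 0.105 at 48 h. These shares follow from the levels and were not tested on their own.

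Among the Tudor domain proteins, which hold PIWI proteins and their partners in germ granules, members moved in opposite directions. Tdrd5 (chr1:156255296-156303664, minus strand), needed for the assembly of these granules, fell. It had 174, 149 and 147 CPM at 0 h, 90.6, 93.1 and 90.6 CPM at 24 h and 89.2, 87.4 and 91.9 CPM at 48 h. All later libraries lay below all 0 h libraries, with log2 fold changes of -0.76 (SE 0.109, adjusted p = 0.00227, edgeR) and -0.81 (SE 0.109, adjusted p = 0.00143). These are levels 1.70-fold and 1.75-fold lower. A share of 2.54% of its exon bases also lies in the antisense gene 4930518J20Rik, and the library kit does not mark strand.

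Tdrd9 (chr12:111971559-112068854, plus strand), a Tudor protein with a helicase domain that partners with Piwil4, rose. Its libraries held 38.1, 40.4 and 34.6 CPM at 0 h, 52.9, 50.8 and 48.7 CPM at 24 h and 58.0, 57.5 and 63.1 CPM at 48 h. No group overlapped another. The log2 fold change was 0.44 (SE 0.114, adjusted p = 0.0266, edgeR) at 24 h and 0.66 (SE 0.111, adjusted p = 0.00396) at 48 h. At 24 h the call was the least firm of the 4: it was lost without 0 h replicate 2 or without any 1 of the 24 h libraries (adjusted p up to 0.126), and the adjusted p was 0.0593 with no filter on low counts.

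Tdrd1 (chr19:56826209-56870012, plus strand), which binds Piwil2 in the granules between mitochondria, had 207, 196 and 188 CPM at 0 h, 213, 211 and 209 CPM at 24 h and 229, 241 and 247 CPM at 48 h. The groups did not overlap, but the differences missed the threshold, with log2 0.11 (adjusted p = 0.458, edgeR) at 24 h and 0.28 (interval 0.05 to 0.50, adjusted p = 0.0651) at 48 h. Libraries that do not overlap were frequent, at 43.4% of all genes tested at 24 h and 48.3% at 48 h. Among the members, 5 lay higher and 1 lower without overlap at 24 h (21.2% and 22.2% of all genes), and 6 higher and 1 lower at 48 h (22.9% and 25.4%).

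Of the genes that act on precursors, Pld6 (MitoPLD, also called Zucchini, chr11:59783897-59787645, minus strand), the endonuclease on the outer mitochondrial membrane that forms the 5′ ends of piRNAs, changed most among the members. It had 7.29, 8.58 and 11 CPM at 0 h (117, 173 and 221 counts), 33.4, 36.7 and 34.6 CPM at 24 h and 35.3, 35.9 and 30.7 CPM at 48 h. The lowest later library was at 30.7 CPM and the highest 0 h library at 11 CPM. The log2 fold change was 1.97 (SE 0.168, interval 1.58 to 2.36, adjusted p = 0.000216, edgeR) at 24 h and 1.92 (SE 0.175, interval 1.51 to 2.33, adjusted p = 0.00025) at 48 h, or 3.92-fold and 3.79-fold. Among all genes tested, 5.07% changed by more at 24 h and 7.28% at 48 h. The Pld6 transcript had no stretch in common with another gene's transcript in a sequence search, and its exons overlap no other gene.

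Asz1 (GASZ, chr6:18050964-18109061, minus strand), a partner of Pld6 on the mitochondrial membrane that is needed for piRNA production, did not follow it. Its 0 h libraries were far apart, at 158, 113 and 82.0 CPM, those of 24 h held 95, 93.0 and 109 CPM, and those of 48 h held 94.6, 94.0 and 93.1 CPM. The later libraries lay within the 0 h range, and the log2 differences were -0.24 (interval -0.77 to 0.30) at 24 h and -0.32 (interval -0.85 to 0.20) at 48 h. The order of the 0 h replicates was that of their germ cell marker sums, 2541, 2003 and 1464 CPM. Some other pathway genes ran in the opposite order, such as Pld6 at 7.29, 8.58 and 11 CPM. The longest transcripts of Asz1 and Pld6 have a GC content of 36.3% and 55.6%. Links of these orders to the marker sums or to GC content were not tested. The difference of Asz1 at 24 h was 0.04 without 0 h replicate 1, and that at 48 h was -0.50 (adjusted p = 0.038, edgeR) without 0 h replicate 3. A difference in Asz1 was not resolved with these 0 h libraries.

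Mov10l1 (chr15:88982909-89055152, plus strand), the helicase that hands precursors to the pathway, had 359, 334 and 364 CPM at 0 h, 414, 413 and 433 CPM at 24 h and 414, 420.3 and 443 CPM at 48 h. Every later library was above every 0 h library, yet the difference missed the threshold at both times, with log2 0.27 (SE 0.0954, adjusted p = 0.082, edgeR) and 0.27 (SE 0.0953, adjusted p = 0.0674). In 5 of 9 other settings of the fit it passed at each time. Mael (maelstrom, chr1:166201201-166238747, minus strand), a protein of germ granules that is needed for transposon silencing, had 202, 199 and 221 CPM at 0 h, 220.1, 212 and 233 CPM at 24 h and 232, 232 and 231 CPM at 48 h. Its log2 differences were 0.11 (interval -0.12 to 0.34) and 0.16 (interval -0.06 to 0.38), and neither passed.

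**Figure D3:**
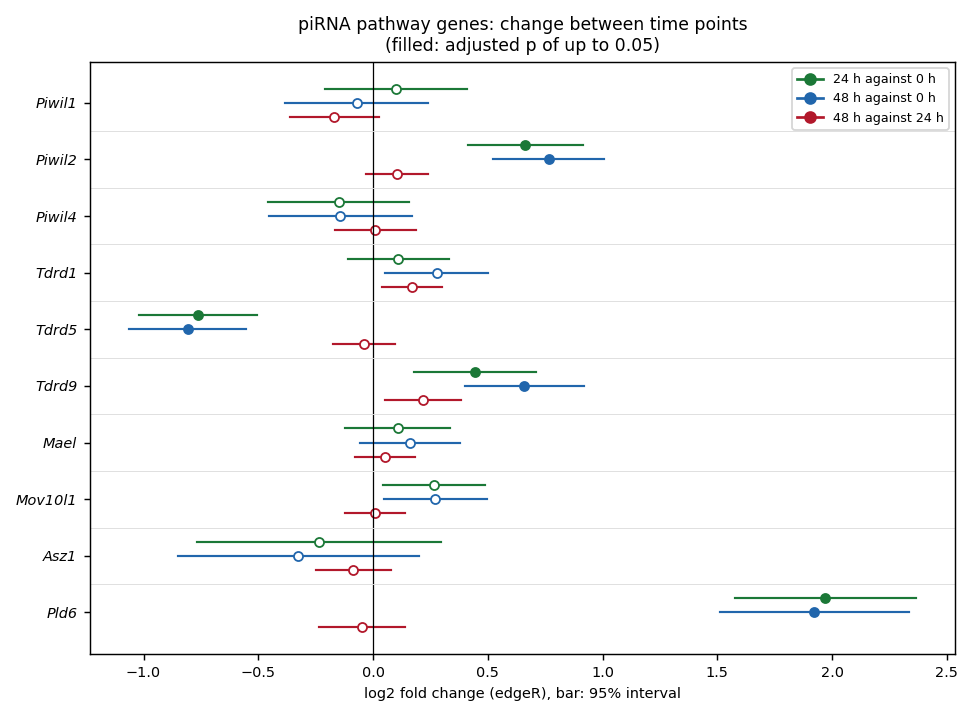
Log2 fold change of each member (horizontal axis, points, with the 95% interval as a bar) for each comparison (colours), with filled points for changes that passed the test and open points for the others. Pld6 lies near 2 in both comparisons with 0 h and near 0 in the comparison of 48 h with 24 h, where all points are open.

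Between 24 h and 48 h, 0 of the 10 members passed edgeR's quasi-likelihood test, while 21.3% of 17499 genes did, 8.61% higher and 12.7% lower. At an unadjusted p under 0.05 there were 2, Tdrd1 and Tdrd9, and DESeq2 called 0. Tdrd9 had a log2 difference of 0.22 (interval 0.05 to 0.38, adjusted p = 0.0623) and Tdrd1 of 0.17 (interval 0.04 to 0.30, adjusted p = 0.0641). For Pld6 the difference was -0.05 (interval -0.23 to 0.14), for Piwil2 0.10 (interval -0.03 to 0.24) and for Tdrd5 -0.04 (interval -0.18 to 0.09). The 10 members ranged from -0.17 for Piwil1 to 0.22, with a median of 0.0090, against a median of -0.0045 for all genes. The 3 members without overlap were Piwil2, Tdrd1 and Tdrd9, all of them higher. Of all genes, 39.6% did not overlap, 18.6% lying higher and 21% lower.

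The order of the members by FPKM shifted between 0 h and the later times. At 0 h it ran from Mael (120 ± 6.81) over Piwil2 (98.5 ± 7.64), Mov10l1 (84.3 ± 3.90), Asz1 (41.5 ± 13.5), Tdrd1 (36.2 ± 1.75), Tdrd5 (22.6 ± 2.13), Piwil4, Tdrd9 (6.96 ± 0.537) and Piwil1 to Pld6 (5.10 ± 1.07 FPKM). Of these neighbours, the libraries of Asz1 and Tdrd1 overlapped, and so did those of each adjacent pair among the last 4. At 24 h Piwil2 was first, followed by Mael (128 ± 6.06), Mov10l1 (100.5 ± 2.63), Tdrd1 (38.7 ± 0.332), Asz1 (35.0 ± 3.05), Pld6 (19.9 ± 0.944), Tdrd5 (13.2 ± 0.205), Tdrd9 (9.38 ± 0.397), Piwil4 and Piwil1, with overlap only between Tdrd1 and Asz1 and between Piwil4 and Piwil1. At 48 h the order was the same, from 167 ± 3.71 FPKM for Piwil2 and 134 ± 0.437 for Mael to 5.62 ± 0.414 for Piwil1, with no overlap between neighbours. Pld6 was last at 0 h and above Tdrd5 at both later times. The order depends on the length used. With the longest transcript in place of all exons, Tdrd5 stood at 41.6 FPKM and above Tdrd1 at 0 h, Asz1 stood above Tdrd1 at 24 h, and Tdrd5 stood above Pld6 at 24 h and 48 h. Piwil4 then stood at 11.7, 10.4 and 10.6 FPKM at 0 h, 24 h and 48 h.

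Set among all 18161 genes past the filter on low counts, Mael, Piwil2 and Mov10l1 were above 96.8% to 98% of genes at 0 h and above 97.9% to 98.8% at 48 h. Pld6 was above 53.1% at 0 h and 82.2% at 48 h, while Tdrd5 went from 83.5% to 73.6%. The summed level of the 10 genes was 1591.7 to 1719.5 CPM at 0 h, 1979.2 to 2028.1 CPM at 24 h and 2078.1 to 2137.5 CPM at 48 h, without overlap between groups. Piwil2 made up most of this difference, at a mean of 521 CPM at 0 h, 817 CPM at 24 h and 885 CPM at 48 h.

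The genes whose levels were most like those of Pld6, by Pearson's r of log2 CPM over the 9 libraries, were Sobp (r = 0.996), Rab11fip4 (r = 0.995) and Gle1 (r = 0.995). Mean levels at 0 h, 24 h and 48 h were 1.57, 5.90 and 5.95 CPM for Sobp, 140, 675 and 650 CPM for Rab11fip4, and 130, 194 and 197 CPM for Gle1. The most alike members were Piwil2 (r = 0.977), Mov10l1 (r = 0.925) and Tdrd9 (r = 0.864), and Tdrd5 ran opposite (r = -0.993). The points share their libraries and fall into 0 h and later ones, so these values describe the step between them.

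A further 22 genes of the pathway, its piRNA-processing, Tudor, silencing and regulatory companions, were all tested. After 24 h 3 were higher and 3 lower, after 48 h 5 were higher and 2 lower, and their median log2 fold changes were -0.08 and -0.02. These 6 and 7 calls among 22 genes are near the background of 25.5% and 31.6% of all genes tested. Henmt1, which methylates the 3′ ends of piRNAs, rose by 0.67 (adjusted p = 0.00484, edgeR) at 24 h and 0.66 (adjusted p = 0.00318) at 48 h on the log2 scale, but 14.7% of its exon bases are shared with the overlapping gene Gm9857. Fkbp6, a co-chaperone of PIWI loading, rose by 0.64 (adjusted p = 0.00431) and 0.58 (adjusted p = 0.00668), from 257 ± 25.4 CPM at 0 h to 397 ± 8.72 and 384 ± 19.8 CPM. Btbd18, a regulator of pachytene piRNA loci, rose at 48 h by 0.50 (adjusted p = 0.00799).

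The largest difference in the companion list was that of Tdrd6, a Tudor protein of the chromatoid body in spermatids. Its level was 20.6 ± 1.72 CPM in the 0 h libraries, 2.41 ± 0.366 CPM after 24 h and 1.33 ± 0.252 CPM after 48 h. It fell, with a log2 change of -3.08 (adjusted p = 3.83e-05, edgeR) and then -3.94 (adjusted p = 1.97e-05), or 8.47-fold and 15.4-fold lower. Spocd1, which links Piwil4 to DNA methylation, fell from 20.0 ± 4.86 CPM to 9.09 ± 0.415 and 11.7 ± 0.660 CPM. Its log2 fold changes were -1.13 (adjusted p = 0.00555) and -0.77 (adjusted p = 0.022), the second of which was lost without 0 h replicate 2 or any 1 of the 48 h libraries.

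The other calls in the companion list were lost in some of the fits that left out 1 library. Dnmt3c, the methyltransferase of young transposons, was higher at 24 h by 2.03 on the log2 scale (adjusted p = 0.0112, edgeR), at 0.419 ± 0.194 and 1.70 ± 0.277 CPM, and the call was lost without 24 h replicate 2. Mybl1 (A-MYB), a transcription factor of pachytene piRNA loci, was lower at 24 h by -1.79 (adjusted p = 0.0334), at 4.69 ± 2.97 and 1.34 ± 0.441 CPM, and this was lost without any 1 of the 24 h libraries. Tdrkh, which recruits PIWI proteins to mitochondria, was higher at 48 h by 0.51 (adjusted p = 0.0255) and Pnldc1, which trims piRNA 3′ ends, by 0.40 (adjusted p = 0.0437), and both were lost without 0 h replicate 2 or any 1 of the 48 h libraries and with the replicate number as a block. The Tdrkh call was also lost with offsets for GC content and length (lowest log2 value over all fits 0.28), and that of Pnldc1 with no filter on low counts. For Tdrkh, 36.7% of exon bases are shared with Oaz3 on the opposite strand.

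**Figure D4:**
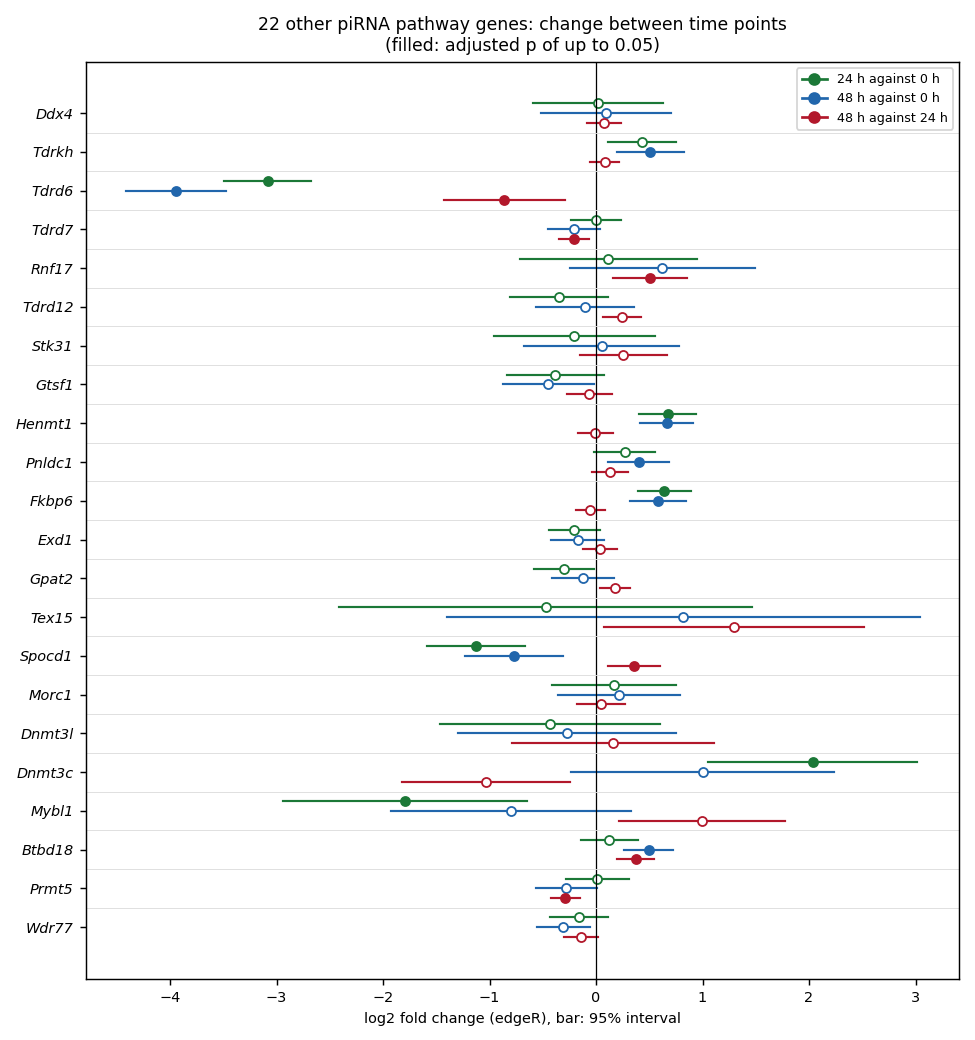
Log2 fold change (horizontal axis, points, with the 95% interval as a bar) of the 22 companion genes for each comparison (colours), with filled points for changes that passed the test. Tdrd6 lies at -3.08 and -3.94 in the comparisons with 0 h, and most other points are open and lie around 0.

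Between 48 h and 24 h, 3 companions were higher (Rnf17 0.51, Spocd1 0.36 and Btbd18 0.37 on the log2 scale) and 3 lower (Tdrd6 -0.86, Tdrd7 -0.21 and Prmt5 -0.29), with adjusted p-values of 0.0094 to 0.0464 in edgeR, where 21.3% of all genes were called (8.61% higher, 12.7% lower). Of these, Btbd18 was called in all 15 other fits, Prmt5 in 11 of 15, Rnf17 in 8, Tdrd6 in 7, Spocd1 in 5 and Tdrd7 in 2. Tdrd6 went from 2.41 ± 0.366 to 1.33 ± 0.252 CPM, Btbd18 from 46.0 ± 3.55 to 60.1 ± 1.06 CPM.

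As a second small RNA pathway, 10 genes of miRNA biogenesis and action were set beside the members. At 24 h 1 was higher and 3 lower, when 25.5% of all genes were called, and at 48 h 1 was higher and 4 lower, when 31.6% were. Drosha, the nuclease that cuts miRNA precursors in the nucleus, fell by 0.58 (adjusted p = 0.00793, edgeR) and 0.82 (adjusted p = 0.000685) on the log2 scale, from 416 ± 20.2 CPM to 275 ± 24.0 and 236 ± 6.41 CPM. Ago2, the Argonaute with slicing activity, fell by 0.84 at both times (adjusted p = 0.00447 and 0.0026), and Prkra, a partner of Dicer, fell with log2 changes of -0.95 (adjusted p = 0.0104) and -1.53 (adjusted p = 0.0016). Ago4, another Argonaute, rose by 1.09 (adjusted p = 0.0152) and 1.30 (adjusted p = 0.00609), from 8.83 ± 2.87 CPM to 18.6 ± 1.17 and 21.8 ± 1.66 CPM. The 24 h calls of Prkra and Ago4 were each lost without 24 h replicate 1 or 2. Dgcr8, the partner of Drosha, fell by 0.45 at 48 h (adjusted p = 0.0135), a call lost without 0 h replicate 2 or any 1 of the 48 h libraries and with the replicate block. A share of 30.1% of its longest transcript also matches transcripts of other genes, Trmt2a among them. Between 48 h and 24 h, Ago3 was higher by 0.57 (adjusted p = 0.0481) and Prkra fell by 0.58 (adjusted p = 0.0198). Without single libraries, the Ago3 call was lost in 5 of 6 fits and that of Prkra in 3. No test of the difference between the 2 pathways was made.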

How the data were processed

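The authors deposited raw counts per gene for each of 9 libraries. Reads from poly-A RNA were handled with fastp, HISAT2 and featureCounts against GRCm38 according to the submitters' processing notes, and versions are not given in the sources used here. Columns without a sample: 0. Gene names, positions and lengths came from GENCODE M21 (45229 of 46078 identifiers matched), and rows without a match took at most 0.121% of counts.

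Each comparison used the 6 libraries of its groups, filterByExpr, TMM and edgeR 4.0.16 in R 4.3.3 (quasi-likelihood test, two-sided), with Benjamini-Hochberg adjustment over all genes tested and a threshold of 0.05. Intervals are 95%. CPM were TMM-normalized over 9 libraries, and FPKM used the union of exons. DESeq2 1.42.0, other scalings and filters, all libraries in 1 fit, a replicate block, offsets for GC content and length, and leaving out each library were tried. Sequences came from RefSeq promoter windows, and transcripts were compared with BLAST 2.17.0 (at least 75 bases at 97% identity). Scripts were tested on simulated data. Members and lists were chosen with earlier results of these data known. Named were all members, the companion and miRNA genes called in a comparison, and the genes most like the member with the largest change.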

Additional observations from a re-analysis of the deposited data

How the results depend on the processing

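With 3 libraries a group and 16825251 to 22201892 counts each, the spread between the 0 h libraries limits the precision. Pld6, Piwil2 and Tdrd5 at both times and Tdrd9 at 48 h were called in all 9 other settings and in all 6 fits that left out 1 library. The number of members called stayed between 3 and 6 against 0 h. At 48 h against 24 h it was 0, 2 (Tdrd1 and Tdrd9) with at least 10 counts in every library, and 1 (Tdrd9) with GC and length offsets. Mov10l1 was called in 5 of 9 settings at each time, Tdrd1 at 48 h in 4, and Asz1 at 48 h in 1 (-0.57, adjusted p = 0.0191, edgeR, block with offsets). Companion calls without 1 library ranged from 4 to 10 at 24 h and 4 to 11 at 48 h, the highest without 0 h replicate 1 and the 4 at 48 h without 0 h replicate 2 or any 48 h library. At 48 h against 24 h they ranged from 1 (without 48 h replicate 1) to 7, and fell from 6 to 2 with all 9 libraries in 1 fit.

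Whether libraries with the same replicate number are paired is not known, and they were not treated as pairs. In their deviations from the group mean, same-numbered libraries of different times correlated at -0.387 to 0.271. Differently numbered ones correlated at -0.525 to 0.528, so these values do not settle the pairing. With the replicate block, 3 members were called at 24 h (Tdrd9 lost, adjusted p = 0.0755, edgeR), and 2 companions at 48 h against 24 h. Signs that reversed were all of small differences that did not pass the test. Asz1 at 24 h ranged from -0.41 to 0.0407 without single libraries, the latter without 0 h replicate 1. Piwil1 at 48 h became 0.0381 with library size alone, 0.0734 with GC and length offsets and 0.0742 with block and offsets, and ranged from -0.16 to 0.0432 without single libraries (the latter without 0 h replicate 3). At 48 h against 24 h, Mael became -0.0235 with offsets and -0.0236 with block and offsets, and Pld6 0.133 and 0.131. Without single libraries in that comparison, Pld6 ranged from -0.0892 to 0.0193, Mov10l1 from -0.0233 to 0.0493, Piwil4 from -0.0279 to 0.0637 and Asz1 from -0.13 to 0.0033. The causes were not tested.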

Other observations

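The spread between the 0 h replicates was wide for some pathway genes, of which 4 are given here; they were chosen for this description after their values were seen. Tex15, a partner of Spocd1 in transposon silencing, ranged from 17.2 to 232 CPM at 0 h, from 48.2 to 116 CPM at 24 h and from 47.0 to 273 CPM at 48 h. Rnf17, a Tudor protein of germ cells, ranged from 51.9 to 154 CPM at 0 h, Ddx4, a germline RNA helicase, from 213 to 461 CPM, and Asz1 from 82.0 to 158 CPM.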
